A study of Mus musculus with 16 samples.

Results

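The genes described here are those whose proteins define the sorting gate of the study, Ptprc (CD45), Itgam (CD11b) and Adgre1 (F4/80), together with 5 genes used across the myeloid lineage, Csf1r, Lyz2, Cd14, Spi1 and Cebpb. They were taken by exact gene symbol, which gave 12 probe sets of the 34958 with a single symbol and 8 genes of 18194. Itgam, Adgre1, Lyz2, Cd14 and Spi1 had 1 probe set each, Ptprc and Cebpb had 2, and Csf1r had 3. None was removed by a filter on low values, because none was applied.

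RNA was measured on 16 Affymetrix mouse arrays, in 4 groups of 4. Female C57BL/6N mice carried ID8-luc, a mouse ovarian cancer line that expresses luciferase, in the abdominal cavity, and the cells were collected from there. Mice aged 8 to 12 weeks received tamoxifen by gavage once (1 mg in 100 µl), were given the tumour cells in the cavity 3 weeks later, and were washed out with 5 ml of cold PBS after 4 weeks of growth. Cells positive for CD45, CD11b and F4/80 were sorted and divided by CCR2, a chemokine receptor. The 4 groups were CCR2+ control, CCR2+ RbpjiΔEC, CCR2- control and CCR2- RbpjiΔEC. RbpjiΔEC stands for a tamoxifen-induced loss of Rbpj, which binds DNA together with activated Notch, in endothelial cells. The labels name neither the promoter that drove the recombinase nor the alleles of the control mice, and they describe the tamoxifen and the tumour cells alike for all 16 samples. The sorted cells are not endothelial, so the level of Rbpj in them is no check of the deletion. The labels do not say that each array came from its own animal, so the p-values measure a spread between arrays that may be technical.

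CD45 is a tyrosine phosphatase on nearly all leukocytes, CD11b is the alpha chain of the integrin complement receptor CR3, and F4/80 is an adhesion G protein-coupled receptor used as the classical marker of mouse macrophages. CSF1R is the receptor through which CSF1 and IL-34 keep macrophages alive, CD14 hands bacterial lipopolysaccharide to TLR4, and Lyz2 encodes the lysozyme of myeloid cells. PU.1, the product of Spi1, and C/EBPβ, the product of Cebpb, are transcription factors of the myeloid lineage, and PU.1 also acts in B cells. CD11b is known on many peritoneal B-1 cells, and CD45 on B cells in general.

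For 4 of the 8 genes (Ptprc, Itgam, Lyz2 and Cebpb) the RefSeq promoter table on GRCm38.p6 held a window around the transcription start. The 250 bases before the start are printed 5′ to 3′ for the gate genes Itgam and Ptprc, which differed in how they moved between the sort labels, and for Lyz2, whose near copy Lyz1 lies in the same table. Capitals mark matches on either strand to GAGGAA, the core of the PU.1 site, to TTGCNNAA, a C/EBP type site, or to TATAAA. No searched motif overlapped another. The windows are chr7:128062390-128062639 on the + strand for Itgam, chr1:138175306-138175555 on the - strand for Ptprc, the first of its 2 windows, and chr10:117282273-117282522 on the - strand for Lyz2. Ptprc is annotated from 138062859 to 138175756, so its printed bases lie inside the gene and precede a start within it.
Itgam: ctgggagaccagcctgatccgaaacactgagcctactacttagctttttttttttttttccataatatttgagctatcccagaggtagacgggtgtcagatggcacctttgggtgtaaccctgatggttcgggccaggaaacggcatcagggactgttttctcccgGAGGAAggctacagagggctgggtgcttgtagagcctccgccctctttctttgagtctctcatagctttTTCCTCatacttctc
Ptprc: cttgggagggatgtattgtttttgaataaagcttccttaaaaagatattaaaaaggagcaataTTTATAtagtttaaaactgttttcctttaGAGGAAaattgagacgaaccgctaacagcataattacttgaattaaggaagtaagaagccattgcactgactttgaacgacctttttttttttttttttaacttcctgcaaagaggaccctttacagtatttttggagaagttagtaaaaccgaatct
Lyz2: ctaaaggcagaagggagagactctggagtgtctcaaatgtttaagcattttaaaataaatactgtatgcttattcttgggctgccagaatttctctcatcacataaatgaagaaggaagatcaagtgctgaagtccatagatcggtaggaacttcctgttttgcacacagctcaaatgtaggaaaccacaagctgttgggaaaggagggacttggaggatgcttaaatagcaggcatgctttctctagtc
Itgam held GAGGAA 84 bases before the start on the printed strand and 15 bases before it on the other strand, where it reads TTCCTC, and once more 32 bases past the start. GAGGAA was present in 28.3% of all 32851 windows and at least 3 times in 0.685%. Ptprc held 1 GAGGAA and 1 TATAAA on the other strand, and TATAAA was present in 13.6% of all windows. Lyz2 held none of the 3 motifs, and TTGCNNAA was present in 10.8% of all windows. Over their whole windows of 300 bases, which run past the start and so beyond the printed bases, Lyz2 and Lyz1 were identical at 201, or 67.0%. The identity was uneven, with 141 of the last 150 bases (94.0%) identical. A match is a run of letters and not a measured binding site.

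Levels below are log2 intensities after quantile normalization over the 16 arrays. On this scale the probe sets for bacterial trp RNA, a control without a mouse target, averaged 6.35 to 6.51 per array. Correlations between arrays within a group were 0.969 to 0.991. Levels of different probe sets are not compared with each other. The deposited columns differed in kind between the sort labels. Array means were 821 to 827 in the CCR2+ columns and 481 to 762 in the CCR2- columns. All values of the CCR2- columns (100%) were fractions with a whole denominator no larger than 22, to a tolerance of 0.001, while in the CCR2+ columns 2.58% to 2.91% were. This difference and the sort label cannot be told apart. Ccr2 itself read 7.99 ± 1.05 (SD, n = 4) in the CCR2+ control arrays and 9.99 ± 1.08 in the CCR2- control arrays, opposite to the sort label (limma difference -1.99 ± 0.63, adjusted p = 0.0184). In RbpjiΔEC mice it read 7.69 ± 0.47 and 8.94 ± 1.32, a difference of -1.26 ± 0.63 that did not pass the test (limma adjusted p = 0.135). Rbpj read 11.36 ± 0.16 in CCR2+ control, 11.43 ± 0.29 in CCR2+ RbpjiΔEC, 10.44 ± 0.23 in CCR2- control and 10.35 ± 0.21 in CCR2- RbpjiΔEC arrays. "CCR2+ arrays" and "CCR2- arrays" below name the deposited label, since Ccr2 was not measured higher in the CCR2+ arrays of either genotype. In bulk RNA, fewer cells of a type and less RNA per cell cannot be told apart.

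Between the sort labels the 8 genes did not behave alike. In both genotypes Itgam, Adgre1, Csf1r, Cd14 and Cebpb were higher in the CCR2+ arrays by between 7.91-fold and 37.0-fold, Lyz2 and Spi1 by smaller factors, and the probe set that stands for Ptprc passed the test in neither. In limma over 18194 genes, 7 of the 8 genes were called higher in the CCR2+ arrays of the control mice and 7 in those of the RbpjiΔEC mice, at an adjusted p under 0.05. Of all genes, 19.4% were called higher in the control comparison and 18.1% in the RbpjiΔEC comparison. The median difference of the 8 genes was 3.05 log2 units in control and 3.42 in RbpjiΔEC mice, beside -0.03 over all genes in each. For all 7 called genes the 4 CCR2+ arrays lay above the 4 CCR2- arrays in both genotypes, and 37.4% of all genes in control and 38.2% in RbpjiΔEC mice had non-overlapping groups in either direction.

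**Figure D1:**
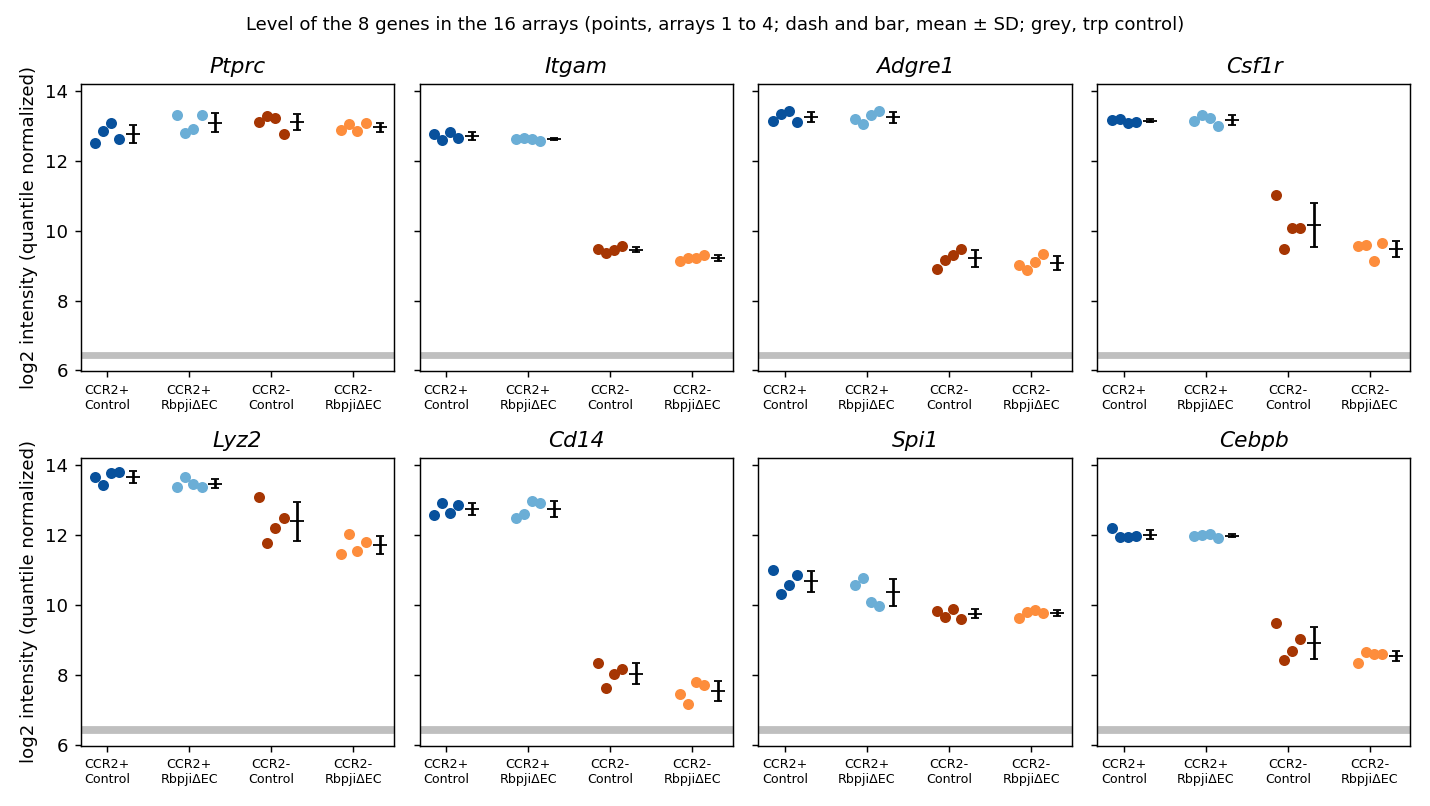
Log2 intensity after quantile normalization (y axis) of the 8 genes in the 4 groups (x axis). Each point is 1 array, in the order 1 to 4, the dash and bar give the mean ± SD of 4 arrays, and the grey band is the range of the trp control (6.35 to 6.51); Ptprc sits near 13 in every group, while Cd14 falls from 12.75 to 8.04 between the 2 control groups.

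Itgam is 1 of the 2 gate genes with a large difference. It read 12.77, 12.59, 12.83 and 12.66 in CCR2+ control arrays 1 to 4 and 12.63, 12.66, 12.62 and 12.57 in CCR2+ RbpjiΔEC arrays. It read 9.46, 9.36, 9.45 and 9.56 in CCR2- control arrays and 9.12, 9.21, 9.22 and 9.31 in CCR2- RbpjiΔEC arrays. Every CCR2+ array lay above every CCR2- array, by at least 3.03 log2 units within a genotype. The difference was 3.25 ± 0.08 (SE) in control mice, or 9.55-fold (limma adjusted p = 6.33e-15), and 3.40 in RbpjiΔEC mice, or 10.6-fold (3.64e-15). On the deposited linear scale the group means were 8335 and 655 in control mice.

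Adgre1 had the larger difference of these 2 gate genes. Its levels were 13.15, 13.33, 13.41 and 13.12 in CCR2+ control arrays and 13.19, 13.05, 13.32 and 13.41 in CCR2+ RbpjiΔEC arrays. They were 8.91, 9.16, 9.30 and 9.48 in CCR2- control arrays and 9.01, 8.88, 9.09 and 9.34 in CCR2- RbpjiΔEC arrays. The labels did not overlap, and the lowest CCR2+ array of control mice exceeded the highest CCR2- array by 3.64. Adgre1 was higher in the CCR2+ arrays by 4.04 ± 0.13 in control mice, or 16.5-fold (limma adjusted p = 1.86e-13), and by 4.16 in RbpjiΔEC mice, or 17.9-fold (1.29e-13). Its lowest array, at 8.88, still read above the trp control.

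Ptprc, the third gate gene, did not separate the labels on probe set 1422124_a_at, the one with the higher mean. It read 12.50, 12.84, 13.07 and 12.61 in CCR2+ control arrays and 13.31, 12.79, 12.91 and 13.32 in CCR2+ RbpjiΔEC arrays. It read 13.10, 13.29, 13.22 and 12.78 in CCR2- control arrays and 12.87, 13.04, 12.84 and 13.09 in CCR2- RbpjiΔEC arrays. The groups overlapped in both genotypes. The difference, CCR2+ minus CCR2-, was -0.34 in control mice (limma 95% interval -0.66 to -0.02, adjusted p = 0.0846) and 0.12 in RbpjiΔEC mice (-0.20 to 0.44, adjusted p = 0.576). In control mice it passed the test without CCR2+ control array 3 (-0.45, adjusted p = 0.0297) and without CCR2- control array 4 (-0.45, adjusted p = 0.0272).

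The other Ptprc probe set, 1440165_at, gave a different picture. It read 9.98, 10.56, 10.20 and 10.22 in CCR2+ control arrays and 10.51 to 10.54 in the 4 CCR2+ RbpjiΔEC arrays. It read 11.91, 11.94, 12.29 and 12.15 in CCR2- control arrays and 12.47, 11.78, 11.75 and 11.64 in CCR2- RbpjiΔEC arrays. All CCR2+ arrays lay below all CCR2- arrays, and 37.6% of all probe sets in control and 38.2% in RbpjiΔEC mice had non-overlapping groups. In a limma fit over all 34958 probe sets, in which 41.6% were called in control and 39.1% in RbpjiΔEC mice in either direction, it was lower in the CCR2+ arrays by 1.83 ± 0.16 in control mice (a difference of -1.83, adjusted p = 6.77e-08). The difference in RbpjiΔEC mice was -1.38 (adjusted p = 2.14e-06). The files give no transcript for either probe set, so which forms of Ptprc each one measures was not analysed here.

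The sign of the first Ptprc probe set depended on the scaling of the arrays. In control mice 1422124_a_at differed by -0.34 after quantile normalization, 0.17 after median centring and 0.23 as deposited, and it passed the test in none of these. In RbpjiΔEC mice it differed by 0.12, 0.40 and 0.69, and the value as deposited passed the test (limma adjusted p = 0.00465). Probe set 1440165_at kept its sign and passed the test under all of them, with differences of -1.83, -1.35 and -1.29 in control mice and -1.38, -1.03 and -0.74 in RbpjiΔEC mice. The median of all genes moved to 0.23 in the RbpjiΔEC comparison when values were taken as deposited.

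**Figure D2:**
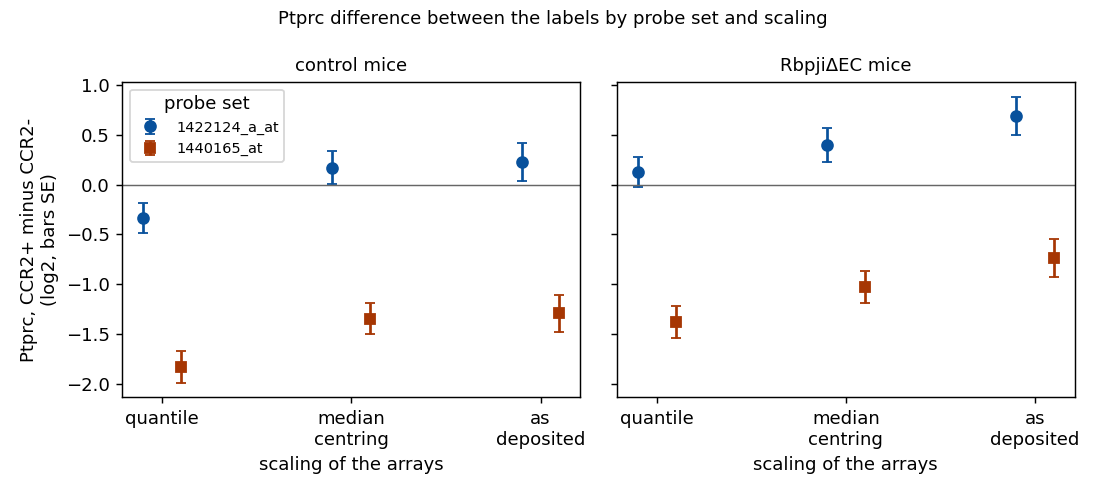
Difference in log2 intensity of Ptprc between CCR2+ and CCR2- arrays (y axis) under 3 scalings (x axis), for control mice on the left and RbpjiΔEC mice on the right. Points are the limma estimates of the 2 probe sets and bars their SE; 1422124_a_at moves from -0.34 to 0.23 in control mice, and 1440165_at stays below 0 throughout.

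Csf1r, the receptor for CSF1, was measured by 3 probe sets, and 1419872_at had the highest mean. It read 13.16, 13.20, 13.09 and 13.12 in CCR2+ control arrays and 13.14, 13.31, 13.24 and 12.98 in CCR2+ RbpjiΔEC arrays. It read 11.02, 9.47, 10.07 and 10.08 in CCR2- control arrays and 9.56, 9.59, 9.13 and 9.63 in CCR2- RbpjiΔEC arrays. The labels did not overlap, and CCR2- control array 1 stood above the rest of its group. Csf1r was higher in the CCR2+ arrays by 2.98 ± 0.22 in control mice, or 7.91-fold (limma adjusted p = 1.02e-08), and by 3.69 in RbpjiΔEC mice, or 12.9-fold (6.65e-10). The other probe sets gave 3.78 and 4.39 (1419873_s_at) and 4.10 and 4.05 (1423593_a_at) for the same 2 comparisons, so the 3 probe sets shared the direction and differed in size.

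Cd14 had the largest difference of the 8 genes in both genotypes. It read 12.57, 12.91, 12.64 and 12.86 in CCR2+ control arrays and 12.49, 12.60, 12.98 and 12.92 in CCR2+ RbpjiΔEC arrays. It read 8.34, 7.62, 8.02 and 8.18 in CCR2- control arrays and 7.45, 7.18, 7.80 and 7.72 in CCR2- RbpjiΔEC arrays. No array of one label overlapped the other. Cd14 was higher in the CCR2+ arrays by 4.71 ± 0.17 in control mice, or 26.1-fold (limma adjusted p = 7.03e-13), and by 5.21 in RbpjiΔEC mice, or 37.0-fold (1.93e-13). Deposited intensities of Cd14 averaged 8509 in CCR2+ control and 260 in CCR2- control arrays.

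Lyz2, the myeloid lysozyme, stayed high in both labels. It read 13.67, 13.43, 13.77 and 13.80 in CCR2+ control arrays and 13.38, 13.66, 13.46 and 13.39 in CCR2+ RbpjiΔEC arrays. It read 13.10, 11.79, 12.20 and 12.49 in CCR2- control arrays and 11.47, 12.04, 11.53 and 11.80 in CCR2- RbpjiΔEC arrays. The labels did not overlap, though CCR2- control array 1 came within 0.33 of the lowest CCR2+ control array. Lyz2 was higher in the CCR2+ arrays by 1.27 ± 0.21 in control mice, or 2.42-fold (limma adjusted p = 8.92e-05), and by 1.76 in RbpjiΔEC mice, or 3.39-fold (2.75e-06). Lyz1 is a near-identical copy of Lyz2, so the probe set of Lyz2 may also bind its RNA, and this was not tested. The Lyz1 probe set differed by 0.53 (adjusted p = 0.0535) and 0.41 (adjusted p = 0.142) in the same comparisons and passed in neither.

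Of the transcription factors, Spi1 differed least among the 7 called genes. It read 10.99, 10.32, 10.57 and 10.85 in CCR2+ control arrays and 10.59, 10.78, 10.09 and 9.98 in CCR2+ RbpjiΔEC arrays. It read 9.82, 9.66, 9.89 and 9.61 in CCR2- control arrays and 9.64, 9.80, 9.86 and 9.76 in CCR2- RbpjiΔEC arrays. The labels did not overlap, with a gap of 0.43 in control mice and 0.12 in RbpjiΔEC mice. Spi1 was higher in the CCR2+ arrays by 0.94 ± 0.17, or 1.92-fold (limma adjusted p = 0.000239), in control mice and by 0.59, or 1.51-fold (adjusted p = 0.00958), in RbpjiΔEC mice.

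Cebpb had a larger estimate than Spi1, though that contrast was not tested. Its probe set 1418901_at read 12.19, 11.94, 11.96 and 11.99 in CCR2+ control arrays and 11.98, 11.99, 12.04 and 11.93 in CCR2+ RbpjiΔEC arrays. It read 9.49, 8.43, 8.70 and 9.02 in CCR2- control arrays and 8.34, 8.66, 8.61 and 8.59 in CCR2- RbpjiΔEC arrays. The labels did not overlap, and the CCR2- control arrays were the most widely spread of the 4 groups. Cebpb was higher in the CCR2+ arrays by 3.11 ± 0.16, or 8.62-fold (limma adjusted p = 1.07e-10), in control mice and by 3.43, or 10.8-fold (2.89e-11), in RbpjiΔEC mice. The second Cebpb probe set, 1427844_a_at, had group means of 7.97, 7.87, 7.36 and 7.32 in the order CCR2+ control, CCR2+ RbpjiΔEC, CCR2- control and CCR2- RbpjiΔEC. It differed in the same direction by 0.61 (adjusted p = 0.00383) and 0.54 (adjusted p = 0.00908). Averaging both probe sets lowered the Cebpb difference in control mice to 1.86 and in RbpjiΔEC mice to 1.99.

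**Figure D3:**
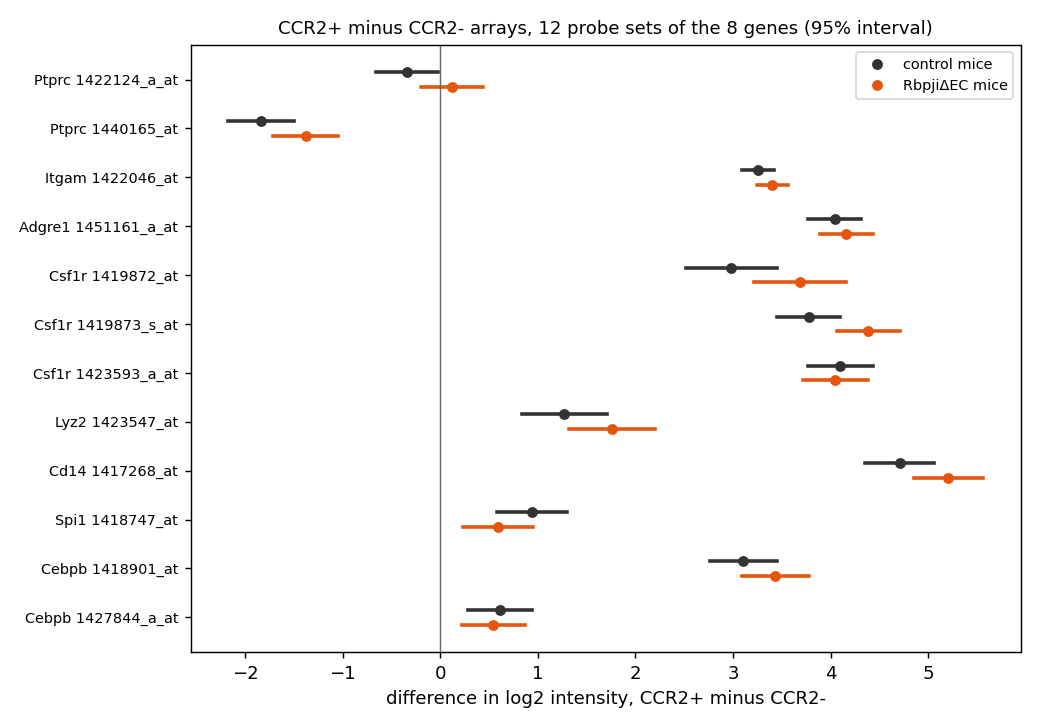
Difference in log2 intensity between CCR2+ and CCR2- arrays (x axis) for each of the 12 probe sets (y axis), in control mice (black) and RbpjiΔEC mice (orange). Points are limma estimates from the fit over 34958 probe sets and lines their 95% intervals; all probe sets but those of Ptprc lie above 0, with Cd14 at 4.71 and 5.21.

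Because the scaling of the arrays moved Ptprc, each of the other 7 genes was also set against Ptprc 1422124_a_at within its own array, on the log2 values as deposited, which removes any factor that scales a whole array. In control mice the gene minus Ptprc was higher in the CCR2+ arrays by 3.46 for Itgam, 4.20 for Adgre1, 3.23 for Csf1r, 1.50 for Lyz2, 4.81 for Cd14, 1.16 for Spi1 and 3.29 for Cebpb. Each of these 7 had non-overlapping groups and an exact two-sided permutation p of 0.0286, the smallest that 4 against 4 arrays allow. The share of all genes that separate when set against Ptprc was not computed. Without this reference, on the normalized scale, 37.4% of all genes in control and 38.2% in RbpjiΔEC mice had non-overlapping groups. In RbpjiΔEC mice 6 of the 7 gave the same p, with differences of 1.65 for Lyz2 to 4.97 for Cd14. Spi1 against Ptprc differed by 0.46 in RbpjiΔEC mice, with overlapping groups (exact permutation p = 0.171). Adjusted over the 14 comparisons by Benjamini-Hochberg, the p of 0.0286 became 0.0308. Against 1422124_a_at an unequal change was thus found for all 7 genes in control mice and for all but Spi1 in RbpjiΔEC mice. Probe set 1440165_at was not used as the reference. As deposited it differed by -0.74 in RbpjiΔEC mice, where Spi1 differed by 1.15. A within-array difference removes a factor on a whole array, and not other differences in kind between the deposited columns.

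The labelled cell type was set against marker lists, all by the same test at gene level. Of all genes, 19.4% were called higher and 21.4% lower in the CCR2+ arrays of control mice, and 18.1% and 21% in RbpjiΔEC mice. Large peritoneal macrophage markers were higher in the CCR2+ arrays at 12 of 12 genes in both genotypes, and B cell markers were lower at 13 of 13. The mean level of the B cell list per array was 7.33 to 7.57 in CCR2+ control and 7.39 to 7.48 in CCR2+ RbpjiΔEC arrays, against 11.69 to 11.78 in CCR2- control and 11.71 to 11.89 in CCR2- RbpjiΔEC arrays. Cd79a, which encodes the Igα subunit that signals for the B cell antigen receptor, read 7.65 ± 0.20 in CCR2+ control and 12.78 ± 0.18 in CCR2- control arrays (SD, n = 4). The mean level of the macrophage list was 12.48 to 12.67 in CCR2+ arrays and 7.41 to 8.03 in CCR2- arrays. Gata6, the transcription factor of large peritoneal macrophages, read 12.04 ± 0.14 and 7.77 ± 0.43 in the 2 control groups. None of the 12 macrophage markers lay at or under the highest trp control value in all 4 arrays of a CCR2- group, and of the 13 B cell markers only Fcrla did so in a CCR2+ group (RbpjiΔEC). The part of these cell type markers in the differences of the 8 genes was not tested.

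Markers of other cells were called in both directions, and these counts too are read against the shares of all genes given above. Of 9 monocyte markers 5 were higher and 2 lower in CCR2+ control arrays, and 5 were higher and 1 lower in RbpjiΔEC mice. Of 9 dendritic cell markers 1 was higher and 6 lower in control mice, and 1 and 4 in RbpjiΔEC mice. Of 10 neutrophil markers 1 was higher and 0 lower in both genotypes, and that one, Csf3r, also belongs to the CSF1 receptor list. T and NK cell markers were lower at 2 of 9 and 3 of 9 genes, mast cell and eosinophil markers were higher at 2 and 1 and lower at 3 and 4 of 10, endothelial markers were lower at 1 of 8 in both genotypes, and tumour and mesothelial markers were lower at 2 and 5 of 10. The mean monocyte level per array was 9.44 to 9.94 in CCR2+ and 8.22 to 9.27 in CCR2- arrays, and the mean neutrophil level 7.32 to 8.45 and 6.85 to 8.85. The monocyte mean covers genes that went opposite ways. In control mice Hp was higher by 4.61 and Fn1 by 3.46, while Plac8 differed by -3.61 and Ccr2 by -1.99. In the array controls for RNA quality the actin 3′ minus 5′ difference was 0.26 in CCR2+ and 0.35 in CCR2- control arrays (exact permutation p = 0.143). In RbpjiΔEC mice it was 0.39 and 0.31 (exact permutation p = 0.229).

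The partners of the 8 genes divided in the same comparisons. Of 22 measured myeloid transcription factors 12 rose and 6 fell in CCR2+ relative to CCR2- arrays of control mice, and 13 and 6 in RbpjiΔEC mice. Maf was higher by 3.89 and Mitf by 3.54 in control mice, while Spib, the B cell relative of Spi1, differed by -5.24 and Irf4, a factor of plasma cells and some macrophages, by -1.28. Spib had adjusted p = 7.17e-15 in limma. The close relative of Cebpb, Cebpa, was higher by 2.95 ± 0.37 in control mice.

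Around the receptors, 6 of 14 CSF1 receptor axis genes were higher and 1 lower in control mice, and 6 and 3 in RbpjiΔEC mice. In control mice the granulocyte colony-stimulating factor receptor Csf3r was higher by 3.21 and the kinase Fes by 2.02, and the phospholipase Plcg2 differed by -0.60. The ligand Il34 differed by -0.10 ± 0.14, which is within its error. Of 10 genes of the CD14 and TLR4 axis 5 were higher and 0 lower in both genotypes. Tlr4 was higher by 3.26 and Lbp, which carries lipopolysaccharide to CD14, by 4.58 in control mice. Ly96, which encodes the TLR4 co-receptor MD-2, was higher by 1.28 ± 0.13.

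Of 8 CR3 integrin partners 4 were higher and 2 lower in control mice, and 4 and 3 in RbpjiΔEC mice. Itgb2, the beta chain that pairs with CD11b, was higher by 1.71 and 1.58, a smaller difference than that of Itgam. The other measured alpha chains of the same beta chain went the other way. Itgax (CD11c) differed by -2.56 and -2.38 and Itgal (CD11a) by -1.80 and -1.81 (largest limma adjusted p of these 4 values 7.69e-06). Of 10 CD45 partners and substrates 2 were higher and 5 lower in both genotypes. Cd22, an inhibitory lectin of B cells that can bind CD45, differed by -5.73 in control mice, and Cd2 by -5.58. The CD45-associated protein gene Ptprcap differed by -3.56 ± 0.23 in control mice, alongside Ptprc itself at -0.34 and -1.83 by probe set. Of 15 pan-leukocyte genes 3 were higher and 8 lower in control mice, and 2 and 9 in RbpjiΔEC mice, with Fyb at 3.79 and Coro1a at -4.06 in control mice. Of 16 core macrophage genes 13 were higher and 0 lower in both genotypes, with Mertk, a receptor for apoptotic cells, at 4.63 and the Fc receptor Fcgr3 at 3.98 in control mice. These list counts are read against the 19.4% higher and 21.4% lower among all genes of control mice, and 18.1% and 21% in RbpjiΔEC mice. Those shares depended on the scaling. Of the 18194 genes, 3532 were called higher and 3891 lower in control mice after quantile normalization, and 4599 and 1726 as deposited. In RbpjiΔEC mice these counts were 3290 and 3817, and 5704 and 1193 as deposited. The list counts were made after quantile normalization only.

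In the genotype comparison none of the 8 genes passed the test in either label. Limma called 0 of 18194 genes at an adjusted p under 0.05 in each label, which is 0% of all genes, and 830 in the CCR2+ arrays and 390 in the CCR2- arrays had an unadjusted p under 0.05. In the CCR2+ arrays the 8 differences, RbpjiΔEC minus control, ran from -0.32 for Spi1 to 0.33 for Ptprc. Ptprc was the only one of the 8 with an unadjusted p under 0.05 there (limma interval 0.01 to 0.64, adjusted p = 0.966). The intervals for the other gate genes were -0.25 to 0.07 for Itgam and -0.28 to 0.26 for Adgre1. Cd14 differed by 0.00 (-0.35 to 0.35), and its groups overlapped. In these arrays too all 10 neutrophil markers had a negative difference, with a median of -0.29 and 0 called. Without CCR2+ control array 2 it was 8 of 10, with a median of -0.12. Tumour and mesothelial markers were negative at 9 of 10, with a median of -0.26 and 0 called. Endothelial markers were positive at 8 of 8, with a median of 0.03 and 0 called. The part of these markers in the differences of the 8 genes was not tested.

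In the CCR2- arrays 7 of the 8 differences were negative, with a median of -0.30 beside -0.002 over all genes. Of the 8, 5 had an unadjusted p under 0.05, but all 8 had adjusted p = 1 in this fit. The count of 5 fell to 3 with median centring, 3 with array weights and 4 with the mean of probe sets. It stayed 5 in the other alternatives that kept all arrays. Over the alternatives with all arrays the lowest limma adjusted p was 0.12 for Csf1r and 0.491 for Lyz2. Lyz2 differed by -0.68 ± 0.21 (limma interval -1.12 to -0.24), Csf1r by -0.68 ± 0.22 (-1.15 to -0.21) and Cd14 by -0.50 ± 0.17 (-0.85 to -0.15). Cebpb differed by -0.36 ± 0.16 and Itgam by -0.24 ± 0.08 (-0.40 to -0.08). Only Itgam among the 8 had non-overlapping groups, at 9.36 to 9.56 in controls and 9.12 to 9.31 in RbpjiΔEC arrays, and 1.56% of all genes had non-overlapping groups in this comparison. Spi1 differed by 0.02 (-0.33 to 0.38), Adgre1 by -0.13 (-0.40 to 0.14) and Ptprc by -0.14 (-0.46 to 0.18). In the same comparison all 10 neutrophil markers had a negative difference, with a median of -0.65, and 0 were called. Without CCR2- control array 2, 7 of the 10 were negative, with a median of -0.24. Of the 9 monocyte markers 7 were negative and 0 called, with a median of -0.27, which was -0.12 without CCR2- control array 1 and -0.12 without array 2. The part of these markers in the differences of the 8 genes was not tested.

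CCR2- control array 1 carried a large share of these values. Without it the difference was -0.39 for Csf1r, -0.45 for Lyz2 and -0.17 for Cebpb, and Cd14 and Itgam remained at -0.40 and -0.24. Leaving out CCR2- control array 2 instead gave -0.91 for Csf1r, -0.88 for Lyz2 and -0.52 for Cebpb. The probe sets of Csf1r differed among themselves. Between the CCR2- groups 1.56% of all probe sets did not overlap. Probe set 1419873_s_at gave -0.64 ± 0.15 with non-overlapping groups (9.0 to 9.77 in controls and 8.35 to 8.84 in RbpjiΔEC arrays), and 1423593_a_at gave -0.17 ± 0.16 with overlap. Both had adjusted p = 1 in the limma fit over probe sets, which called 0.00572% of all probe sets by genotype in the CCR2+ arrays and 0% in the CCR2- arrays, and none of the 12 here.

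**Figure D4:**
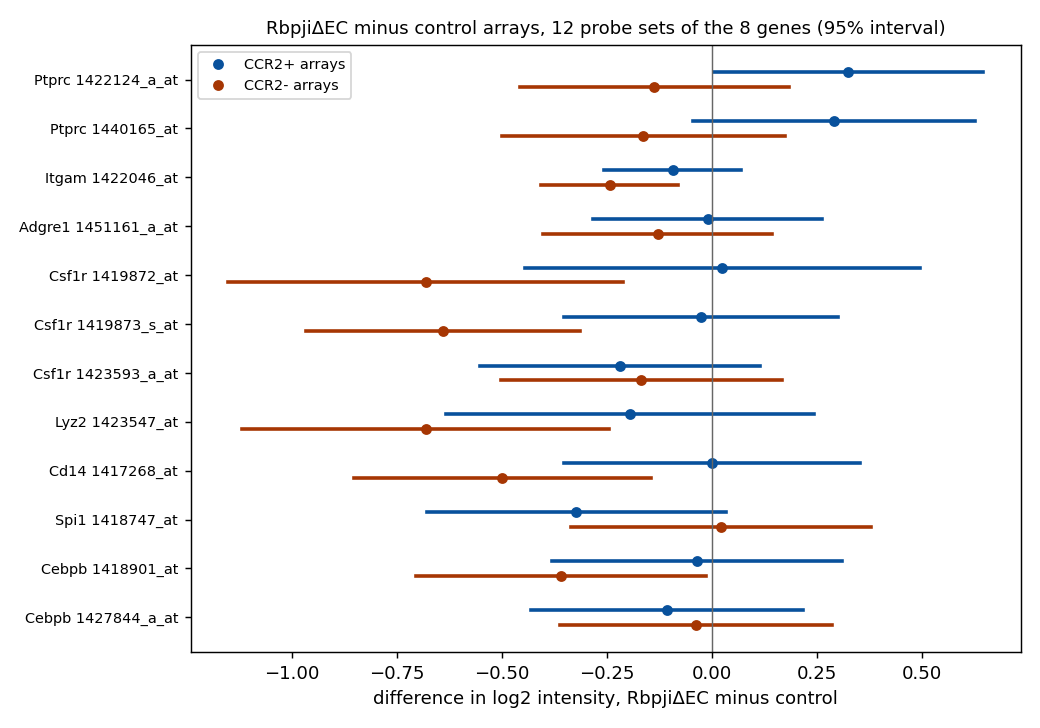
Difference in log2 intensity between RbpjiΔEC and control arrays (x axis) for the 12 probe sets (y axis), in CCR2+ (blue) and CCR2- arrays (brown). Points are limma estimates and lines their unadjusted 95% intervals; Csf1r 1419872_at and Lyz2 both sit at -0.68 in the CCR2- arrays, and no probe set of these genes passed the test after adjustment.

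The interaction, which tests whether the label difference depends on the genotype, called 0 of 18194 genes, with 555 at an unadjusted p under 0.05. Csf1r had an interaction of 0.71 and Ptprc of 0.46, the only 2 of the 8 with an unadjusted p under 0.05, and the adjusted p was 0.999 for both (limma). The intervals were 0.04 to 1.37 for Csf1r and 0.01 to 0.91 for Ptprc. The Csf1r value was 0.42 without CCR2- control array 1. Its other probe sets gave 0.61 ± 0.22 (1419873_s_at) and -0.05 ± 0.22 (1423593_a_at), and Ptprc 1440165_at gave 0.45 ± 0.22. With median centring the Ptprc value was 0.23, and 0 of the 8 genes had an unadjusted p under 0.05. As deposited the Ptprc value was 0.46, and 3 of the 8 genes had an unadjusted p under 0.05. Spi1 was the only one of the 8 with a negative estimate, at -0.34 (-0.85 to 0.16).

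The lists around the 8 genes also had 0 called members in the genotype comparisons and in the interaction. By the smallest p of each list, Src, a kinase of the CD45 list, differed by -0.52 in the CCR2+ arrays (limma adjusted p = 0.517), Acod1, an enzyme induced by lipopolysaccharide, by -0.94 (adjusted p = 0.898) and Icam1, a ligand of CR3, by -0.41 (adjusted p = 0.966). In the CCR2- arrays Cebpd differed by -0.42, Fgr by -0.37 and Lyz1 by -0.55, each with adjusted p = 1. Lyz1 and Cebpd had the smallest p of their lists in the CCR2+ arrays too. There Lyz1 differed by -0.67 and Cebpd by 0.33 (limma adjusted p = 0.966 for both). Of the 16 core macrophage genes 15 had a negative difference in the CCR2- arrays, with a median of -0.16 beside -0.002 over all genes. The mean of this list was 10.44, 10.12, 10.34 and 10.08 in CCR2- control arrays 1 to 4. In the CCR2- RbpjiΔEC arrays it was 9.85 to 10.20, so the groups overlapped.

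The 4 CCR2- control arrays did not spread equally for all 8 genes. The SD of Csf1r there was 0.64, larger than that of 98.8% of all genes in the same arrays, that of Lyz2 was 0.55 (97.6%) and that of Cebpb 0.46 (95%). Itgam had an SD of 0.08 in the same arrays. As deposited the SDs were 0.31 for Csf1r, 0.40 for Lyz2, 0.16 for Cebpb and 0.27 for Itgam, so Cebpb no longer exceeded Itgam. Csf1r, Lyz2, Cd14 and Cebpb all ranked the arrays in the order 1, 4, 3, 2 from high to low, an order shared by 843 of 18194 genes, or 4.63%, and noticed after the values were seen. Ccr2 (11.51, 9.02, 9.53 and 9.88) and Fn1, which encodes fibronectin (11.79, 9.08, 9.72 and 10.11), had that order too, 2 of the 9 monocyte markers. As deposited, Csf1r and Cebpb kept the order 1, 4, 3, 2. Lyz2 (12.46, 11.85, 11.70 and 12.46) and Cd14 (8.00, 7.84, 8.21 and 8.02) did not. On the normalized scale Adgre1 was lowest in array 1, as was Gata6 (7.16, 7.79, 7.99 and 8.16). The mean of the monocyte list was 9.27 in array 1 and 8.69 to 8.82 in the others, the mean of the neutrophil list was highest in array 2 (8.85) and the mean of the B cell list stayed between 11.69 and 11.78. The part of these markers in the spread was not tested.

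**Figure D5:**
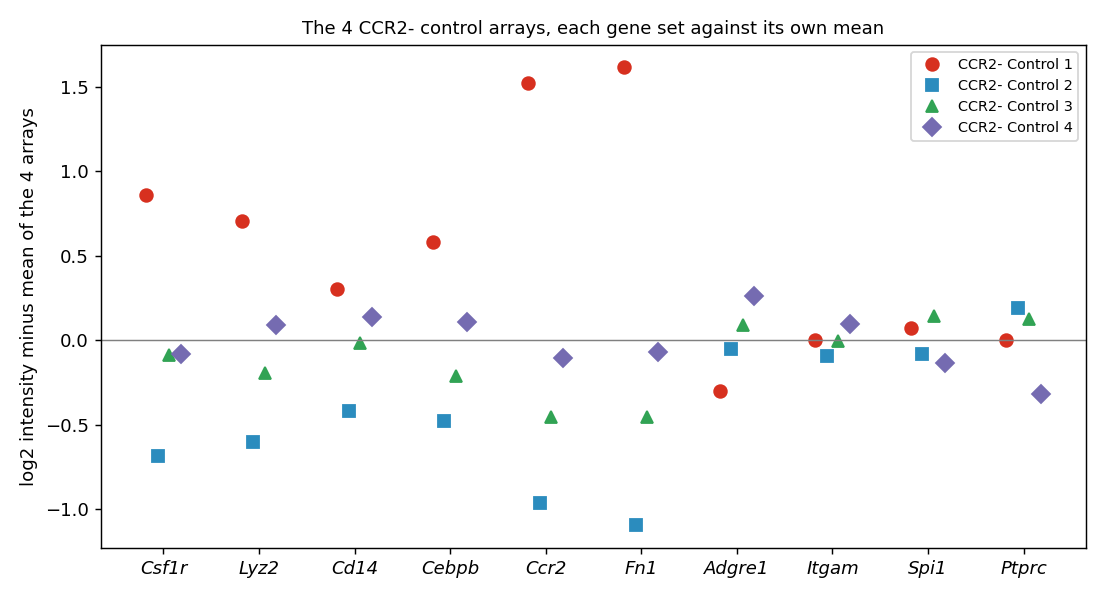
Log2 intensity after quantile normalization, minus the mean of the 4 CCR2- control arrays (y axis), for the 8 genes and for Ccr2 and Fn1 (x axis), 1 symbol per array. Array 1 is the highest for Csf1r, Lyz2, Cd14, Cebpb, Ccr2 and Fn1 and the lowest for Adgre1, and array 2 is the lowest for the first 6.

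Genes with the pattern most like each of the 8 over the 16 arrays were found by the root mean square difference after each gene was centred on its own mean, among 16444 genes. The arrays share their label difference, so nearness mostly means a similar size of that difference. Itgam was nearest to Itga6 (0.142 log2 units), another integrin alpha chain, then Hgsnat (0.159) and Emilin1 (0.164). Adgre1 was nearest to Tnfaip2 (0.167), Rab11fip5 (0.194) and Enpp5 (0.203). Cd14 was nearest to C1qc (0.222), a chain of complement C1q, Mertk (0.228) and Bst1 (0.241). Csf1r had another of the 8 as its nearest gene, Cebpb (0.217), followed by Focad (0.253) and Metrnl (0.286). Cebpb was nearest to Idh1 (0.189), then to Itgam (0.203) and Csf1r (0.217), so 2 of its 3 nearest genes were of the 8. Lyz2 had no neighbour nearer than 0.313, with Zfp467 (0.313), Tmem106a (0.314) and the chemokine gene Ccl6 (0.315). Spi1 was nearest to Akt1 (0.135), Rab13 (0.139) and Dap (0.152), and Ptprc to Marchf6 (0.113), Chil4 (0.116) and Hp1bp3 (0.122). Among the 8, the pair farthest apart was Ptprc and Cd14 (2.56) and the nearest was Itgam and Cebpb (0.203).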

How the data were processed

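The deposited values were linear intensities of 45101 probe sets on 16 arrays, and how the authors made these intensities was not given in the sources used here. Each intensity was log2 transformed and quantile normalized over all arrays. Of the probe sets, 34958 had 1 gene symbol in the platform annotation, 932 had several and 9211 were not listed, and the last 2 kinds were left out. The probe set with the highest mean stood for a gene (18194 genes, 9012 of them with several). Limma 3.58.1 in R 4.3.3 was fitted with 4 group means over all genes, and again over all probe sets, two-sided, with Benjamini-Hochberg adjustment and a threshold of 0.05. Intervals of 95% are unadjusted. Single values outside limma had exact permutation tests. The number of arrays limits the precision. The 8 genes, the 16 lists and the tests were chosen with earlier results of these data known. Named are the 8 genes, from each list the genes with the largest called differences or the smallest p, the 3 nearest genes of each of the 8, and Ccr2, Rbpj, Gata6 and Cd79a. Named outside this rule, after their values were seen, were Cebpa, Il34, Ly96, Ptprcap and Lyz1 between the labels, and Fn1 by array. Alternatives were median centring, log2 values as deposited, a filter on dim genes, the mean of all probe sets, other spread models, array weights, a replicate block, normalization within a label, and leaving out each array. Promoter sequences are from RefSeq.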

Additional observations from a re-analysis of the deposited data

Results flagged for a closer look

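In 4 of the 48 groups of 4 arrays compared, 12 probe sets in 4 groups each, the highest or lowest array stood apart from the other 3 by more than Dixon's 95% critical ratio, a rule that chance alone meets in about 5% of groups. For Csf1r 1419872_at, CCR2- RbpjiΔEC array 3 read 9.13, below the 9.56 to 9.63 of the others. For Csf1r 1419873_s_at, CCR2- control array 1 read 9.77, above 9.0 to 9.12. For Csf1r 1423593_a_at, CCR2+ RbpjiΔEC array 2 read 12.58, above 11.86 to 11.98. For Ptprc 1440165_at, CCR2- RbpjiΔEC array 1 read 12.47, above 11.64 to 11.78. The 3 probe sets of Csf1r each stood apart in a different array.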

How the results depend on the processing

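Under every alternative run, leaving out each array included, Itgam, Adgre1, Csf1r, Lyz2, Cd14, Spi1 and Cebpb remained called higher in the CCR2+ arrays of both genotypes, and none of the 8 genes was called in a genotype comparison or in the interaction. Spi1 in RbpjiΔEC mice came nearest to the threshold (limma adjusted p up to 0.0365 without 1 array). Ptprc between the labels turned to 0.17 (median centring) and 0.23 (as deposited) in control mice, was called with the mean of its probe sets in control mice at -1.09 (adjusted p = 5.8e-07), turned to -0.63 with that mean in RbpjiΔEC mice (adjusted p = 0.000225), and was called as deposited there at 0.69. Leaving out 1 array gave -0.45 to -0.26 in control mice. Small genotype differences changed sign: in the CCR2+ arrays Csf1r to -0.0573 (median centring), -0.009 (as deposited), -0.0734 (mean of probe sets) and -0.0197 (array weights), Cd14 to -0.0476 (median centring) and Adgre1 to 0.0281 (array weights), and in the CCR2- arrays Ptprc to 0.0036 (median centring) and Spi1 to -0.1244 (as deposited). Leaving out 1 array gave -0.0665 to 0.0549 for Adgre1, -0.0237 to 0.0859 for Csf1r, -0.0766 to 0.084 for Cd14 and -0.0611 to 0.0232 for Cebpb in the CCR2+ arrays, and -0.0222 to 0.0698 for Spi1 in the CCR2- arrays. The cause was not tested.

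With replicate numbers as a block, 1 gene was called by genotype in the CCR2+ arrays against 0, and no call among the 8 genes changed. The labels give replicate numbers but no pairing. Deviations of arrays with the same number correlated at -0.38 to 0.40, 7 of 16 pairs exceeded 0.1, and 8 of 16 arrays correlated best with their own number. Between the labels the correlations were 0.05, -0.03, 0.21 and 0.40 for numbers 1 to 4 in control mice. In RbpjiΔEC mice they were 0.24, 0.04, 0.06 and 0.13. Between the genotypes they were 0.15, -0.38, -0.03 and 0.004 in CCR2+ and 0.19, -0.07, -0.10 and 0.12 in CCR2- arrays. The block joined equal numbers across both genotypes, and a pairing of the labels within each genotype was not fitted. Genes called by genotype in the CCR2+ arrays were also 1 above the lowest tercile, 2 with the mean of probe sets, 1 with array weights and 0 to 2 without 1 array. In the CCR2- arrays they were 0 to 1 without 1 array. Probe sets called in the CCR2+ arrays were 2, against 0 (median centring), 0 (as deposited), 5 (array weights) and 1 to 4 without 1 array, and in the CCR2- arrays 0 to 1. Genes called higher made up 47.6% of those called between the labels in control mice, 62.8% with median centring and 72.7% as deposited, and 46.3%, 55.4% and 82.7% in RbpjiΔEC mice. As deposited, actin 3′ minus 5′ differed between the labels by -0.147 in control mice against -0.0828, and by -0.012 in RbpjiΔEC mice against 0.0757. The files hold no detection calls, so signal over background is known only through the trp control.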
